A study of Mus musculus with 5 samples.

Results

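The Arl4 proteins, the GTPase Arf6 and the cytohesins form a signalling module at the plasma membrane, and 8 genes encode its mouse members: Arl4a, Arl4c, Arl4d, Arf6, Cyth1, Cyth2, Cyth3 and Cyth4. They were taken by symbol from the 35976 genes counted in bulk RNA-seq of mature CD8 single-positive (SP) thymocytes, CD8 lineage T cells close to leaving the thymus. All 8 had a row, and all 8 passed the filter on low counts that left 13666 genes for testing. They were chosen by their measured differences between the genotypes compared here, which are therefore given as a description. Where the fit over all genes called one of them, the call is counted beside the share of all genes called and supports nothing.

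The thymocytes came from mice with 1 Runx3 allele named WRPW (Runx3 +/WRPW, 3 libraries) and from wild-type mice (Runx3 +/+, 2 libraries), and were purified by flow cytometry. Runx3 is the transcription factor that establishes the CD8 lineage, and WRPW is known as the peptide by which Hes proteins bind Groucho/TLE corepressors. The WRPW allele stood beside a wild-type copy, so these are heterozygous cells. No label ties a library to an animal of its own. The spread that the p-values rest on is thus that among these samples, and it may be technical.

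Arf-family GTPases are switches that act on membranes when loaded with GTP. Cytohesins are the exchange factors that load them: a Sec7 domain exchanges the nucleotide, and a pleckstrin homology (PH) domain holds the protein at phosphoinositides of the plasma membrane. Arf6 acts there in endocytic recycling and actin remodelling, and the Arl4 proteins, which stay at the plasma membrane, recruit cytohesins through the PH domain. In lymphocytes, cytohesin-1 is known for binding the beta chain of the integrin LFA-1.

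Total counts ran from 15715242 to 43758550 in the Runx3 +/WRPW libraries and from 21635675 to 25526389 in the Runx3 +/+ libraries. Runx3 +/WRPW library 2 stood apart, with a count at 27414 genes against 17237 to 18967 in each of the other 4 libraries. Of 9325 genes with no count in those 4 libraries, 4457 had one in library 2. Levels of the defining genes of mature CD8 SP thymocytes summed to 7206 to 8217 CPM (counts scaled to a fixed library total) in Runx3 +/WRPW and 7717 to 7899 CPM in Runx3 +/+. Transcripts of dividing cells differed most among the marker lists: all 8 were lower, with a summed level of 83.8 to 94.5 CPM in Runx3 +/WRPW and 614 to 660 CPM in Runx3 +/+. Markers of double-positive or immature thymocytes summed to 43.6 to 53.7 CPM in Runx3 +/WRPW and 64.0 to 66.5 CPM in Runx3 +/+, with 1 of 6 tested lower. The B cell list summed to 3.04 to 5.36 CPM in Runx3 +/WRPW and 9.71 to 9.75 CPM in Runx3 +/+, without overlap, and 1 of 2 tested fell: Cd79b, 3.88-fold lower (edgeR adjusted p = 0.00426). Hba-a1 and Hba-a2, globin genes of erythroid cells, had no count in any library, and the erythroid list reached 0.869 CPM in Runx3 +/WRPW and 0.639 CPM in Runx3 +/+. The CD4 lineage list summed to 28.7 to 34.7 CPM in Runx3 +/WRPW and 38.9 to 55.6 CPM in Runx3 +/+, most of it Gata3. Cd4 was 15.7-fold lower in Runx3 +/WRPW and was not called (edgeR adjusted p = 0.0743). It had 134 counts in Runx3 +/+ library 2 and 10 in library 1, against 7, 6 and 1 in Runx3 +/WRPW. For regulatory T cells the sums were 174 to 334 CPM in Runx3 +/WRPW and 207 to 328 CPM in Runx3 +/+. Ikzf2 supplied most of the regulatory T cell sum, and 2 of the 4 genes fell: Foxp3, 9.29-fold lower at 0.762 CPM in Runx3 +/WRPW and 7.36 CPM in Runx3 +/+ (edgeR adjusted p = 0.0123), and Ctla4, 4.98-fold lower (edgeR adjusted p = 0.0156). Stromal markers had 82.2 to 105 CPM in Runx3 +/WRPW and 149 to 188 CPM in Runx3 +/+, nearly all of it Pecam1, the 1 of 3 tested that fell (1.89-fold lower, edgeR adjusted p = 0.0139). Epcam and Col1a1 were 1.26-fold and 1.59-fold higher and were not called. Myeloid markers had 5.28 to 18.3 CPM in Runx3 +/WRPW and 6.55 to 7.47 CPM in Runx3 +/+. Natural killer markers had 218 to 338 CPM in Runx3 +/WRPW and 201 to 222 CPM in Runx3 +/+, and 1 of 3 tested rose: Eomes, 9.37-fold higher at 105 CPM in Runx3 +/WRPW and 11.1 CPM in Runx3 +/+ (edgeR adjusted p = 0.00402). Nkg7 and Klrk1 were 1.24-fold and 3.19-fold lower and were not called, and Ncr1 had at most 0.374 CPM in any library. Whether a change in cell types took part in any difference below was not tested.

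Arl4c, a GTPase gene that is also a target of the liver X receptors (LXR), was the member with the largest genotype difference and the only one with a large decrease. Its level, scaled by the trimmed mean of M-values (TMM), was 230, 218 and 218 CPM in the Runx3 +/WRPW libraries and 776 and 835 CPM in the Runx3 +/+ libraries. The groups were far apart and each was narrow, with means of 222 ± 7.40 CPM (SD, n = 3) in Runx3 +/WRPW and 805 ± 41.5 CPM (SD, n = 2) in Runx3 +/+. The fitted log2 fold change was -1.86 ± 0.07 (SE), or 3.63-fold lower in Runx3 +/WRPW, and it stayed between -1.95 and -1.81 when any 1 library was left out. In bulk RNA, fewer cells that express a gene and less of its RNA per cell cannot be told apart. Arl4c moved in the same direction as the dividing-cell markers above, and the part of that change in its decrease was not tested.

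The Arl4c gene lies on chromosome 1 (88673125 to 88702221, minus strand, mm10, protein-coding), and its coding sequence has 576 bases. The 250 bases before its start site are shown, with those of Cyth3 and Cyth4, because these 3 genes had the members' largest genotype differences in well-covered transcripts. The sequences are from RefSeq (GRCm38.p6), read on the gene's strand, and capitals mark CpG dinucleotides.
Arl4c chr1:88702192-88702441, minus strand: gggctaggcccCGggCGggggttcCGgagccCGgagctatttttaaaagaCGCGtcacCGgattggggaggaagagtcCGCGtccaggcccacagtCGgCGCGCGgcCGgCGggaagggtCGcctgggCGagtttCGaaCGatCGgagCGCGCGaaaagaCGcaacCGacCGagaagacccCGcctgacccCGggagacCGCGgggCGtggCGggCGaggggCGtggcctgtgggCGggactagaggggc
Cyth3 chr5:143622197-143622446, plus strand: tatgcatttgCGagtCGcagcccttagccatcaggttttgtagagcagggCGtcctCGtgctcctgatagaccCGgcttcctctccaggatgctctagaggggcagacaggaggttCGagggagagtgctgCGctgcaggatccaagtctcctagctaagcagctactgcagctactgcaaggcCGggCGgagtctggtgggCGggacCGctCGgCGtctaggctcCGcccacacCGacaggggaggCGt
Cyth4 chr15:78596797-78597046, plus strand: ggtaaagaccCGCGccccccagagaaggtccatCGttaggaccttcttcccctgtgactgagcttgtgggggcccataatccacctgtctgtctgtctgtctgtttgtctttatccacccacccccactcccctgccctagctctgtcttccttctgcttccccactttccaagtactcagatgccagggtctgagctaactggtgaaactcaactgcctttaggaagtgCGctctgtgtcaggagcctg
The Arl4c window held 35 CpGs, more than 97.0% of all 32851 promoter windows of this length, and 71.6% of its bases were G or C. The Cyth3 window held 16 CpGs and the Cyth4 window 4, against a median of 6 over all windows. Cyth3 and Cyth4, both higher in Runx3 +/WRPW though Cyth4 was not called, thus differed from each other in CpG content.

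RUNX proteins bind the core TGTGGT and its variant TGCGGT, and both were searched on both strands of the 10 windows listed for 7 of the members (all but Arf6). Neither was present in the Arl4c, Cyth3 or Cyth4 window. The only match was TGTGGT on the opposite strand of an alternative Cyth1 start, beginning 47 bases before it and shown in capitals.
Cyth1 chr11:118212732-118212981, minus strand: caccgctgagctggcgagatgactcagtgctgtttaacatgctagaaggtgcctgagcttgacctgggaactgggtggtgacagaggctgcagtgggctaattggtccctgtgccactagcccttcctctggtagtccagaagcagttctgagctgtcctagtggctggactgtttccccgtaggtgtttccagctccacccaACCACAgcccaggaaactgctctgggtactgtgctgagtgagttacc
Over all windows, 14.0% held TGTGGT and 5.1% held TGCGGT. No match says only that these letters are absent from these windows.

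Arl4a, which binds the ELMO engulfment and motility adaptors, lies on chromosome 12 (40005447 to 40038025) and differed in the other direction from Arl4c, by a small amount. Its level was 27.0, 28.0 and 30.0 CPM in the Runx3 +/WRPW libraries and 21.9 and 21.6 CPM in the Runx3 +/+ libraries. Every Runx3 +/WRPW library was above both Runx3 +/+ libraries, and the log2 fold change was 0.38 ± 0.09 (SE).

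Arl4d, which brings cytohesin-2 to the plasma membrane, lies on chromosome 11 (101665541 to 101667832) and was close to the limit of detection. It had 60, 44 and 21 counts in the Runx3 +/WRPW libraries (1.37, 2.74 and 0.966 CPM), and 17 and 19 counts in the Runx3 +/+ libraries (0.794 and 0.759 CPM). The highest value was that of Runx3 +/WRPW library 2, the library with counts at many otherwise silent genes. The log2 fold change of 1.11 ± 0.58 (SE) was 0.60 without that library, so that 1 library carried much of it. In library 2 Arl4d had 31.8 counts per kilobase, above the 90th percentile of 7.66 among the genes without a count in the other 4 libraries. That density includes the gene's own transcripts, and how much of it was background was not tested.

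Arf6 (chromosome 12, 69372150 to 69373783), the GTPase that the cytohesins serve at the plasma membrane, was abundant in both genotypes. The Runx3 +/WRPW libraries had 244, 244 and 283 CPM, and the Runx3 +/+ libraries 282 and 263 CPM. The groups overlapped, with a log2 fold change of -0.09 ± 0.09 (SE). Arl4c and Arf6 therefore differed in how they compared between genotypes: per length, Arf6 exceeded Arl4c by 3.79-fold, 4.01-fold and 4.65-fold in the Runx3 +/WRPW libraries and by 1.30-fold and 1.13-fold in the Runx3 +/+ libraries. The size of this ratio rests on the exon lengths used for Arf6 and Arl4c, and so does which gene leads in Runx3 +/+. At the longer RefSeq span of Arf6 (3831 against 1534 bases), Arl4c would lead there. That the ratio is higher in Runx3 +/WRPW does not depend on length.

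**Figure D1:**
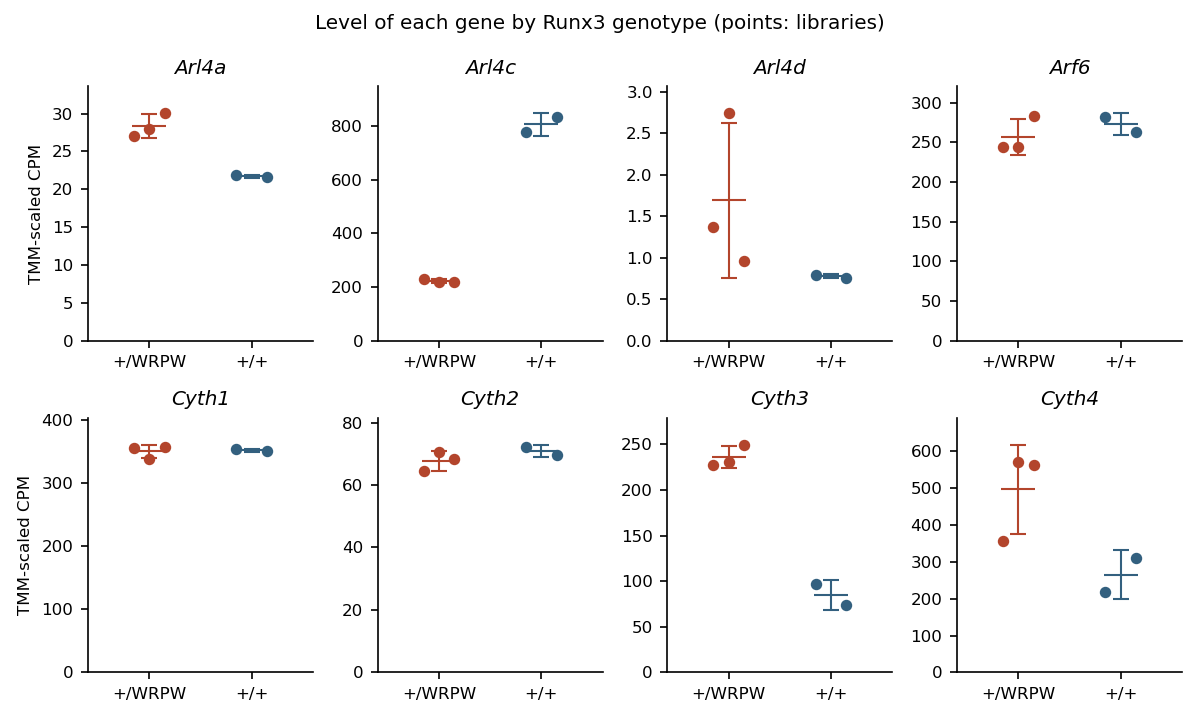
TMM-scaled CPM of each gene in the Runx3 +/WRPW (left, 3 libraries) and Runx3 +/+ (right, 2 libraries) samples, with points for libraries, a horizontal mark for the mean and bars for the SD. Arl4c stands at 218 to 230 CPM in Runx3 +/WRPW and 776 to 835 CPM in Runx3 +/+, Cyth3 shows the opposite order, and Cyth1, Cyth2 and Arf6 overlap.

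Of the cytohesins, Cyth3 had the largest genotype difference. It encodes cytohesin-3 (GRP1), named as a receptor for phosphoinositides, and lies on chromosome 5 (143622447 to 143710250). The level was 228, 230 and 249 CPM in the Runx3 +/WRPW libraries and 96.5 and 73.5 CPM in the Runx3 +/+ libraries. No library of one genotype came near the other, with means of 236 ± 11.9 CPM (SD, n = 3) in Runx3 +/WRPW and 85.0 ± 16.2 CPM (SD, n = 2) in Runx3 +/+. The log2 fold change was 1.47 ± 0.13 (SE), a 2.77-fold higher level, and ran from 1.28 to 1.64 when any 1 library was left out.

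Cyth4, whose product is a cytohesin of leukocytes, was also higher but with a wide spread inside each genotype. It lies on chromosome 15 (78597047 to 78622019) and had 356, 569 and 562 CPM in the Runx3 +/WRPW libraries, against 217 and 311 CPM in the Runx3 +/+ libraries. Runx3 +/WRPW library 1 lay nearer to the higher Runx3 +/+ library than to the other Runx3 +/WRPW libraries, although the groups did not overlap. The log2 fold change was 0.91 ± 0.25 (SE), and it ran from 0.63 without Runx3 +/+ library 1 to 1.18 without Runx3 +/+ library 2. Unlike Cyth3, Cyth4 was not called in the edgeR fit over all genes.

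Cyth1 and Cyth2 had much the same level in both genotypes. Cyth1 (chromosome 11, 118132019 to 118248592) had 356, 339 and 357 CPM in the Runx3 +/WRPW libraries and 354 and 351 CPM in the Runx3 +/+ libraries. Its log2 fold change of -0.01 ± 0.06 (SE) was near 0 and changed sign with the scaling, to 0.03 with upper-quartile factors. Cyth2 (chromosome 7, 45806637 to 45814581), which encodes the broadly expressed cytohesin-2 (ARNO), had 64.4, 70.7 and 68.4 CPM in the Runx3 +/WRPW libraries and 72.3 and 69.5 CPM in the Runx3 +/+ libraries. The groups overlapped, with a log2 fold change of -0.06 ± 0.07 (SE).

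At an adjusted p under 0.05 in edgeR's quasi-likelihood fit, 2 of the 8 genes were higher in Runx3 +/WRPW (Arl4a and Cyth3) and 1 was lower (Arl4c), beside 13.6% of all 13666 tested genes in either direction. The higher genes made up 6.24% and the lower genes 7.33% of those tested. The groups did not overlap at 5 of the 8 genes, against 48.5% of all tested genes, with Runx3 +/WRPW above at 4 (24.7% of all) and below at 1 (23.8% of all), so that with these few libraries such a separation was common. Since the genes were chosen with this comparison known, nothing is read from these counts.

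**Figure D2:**
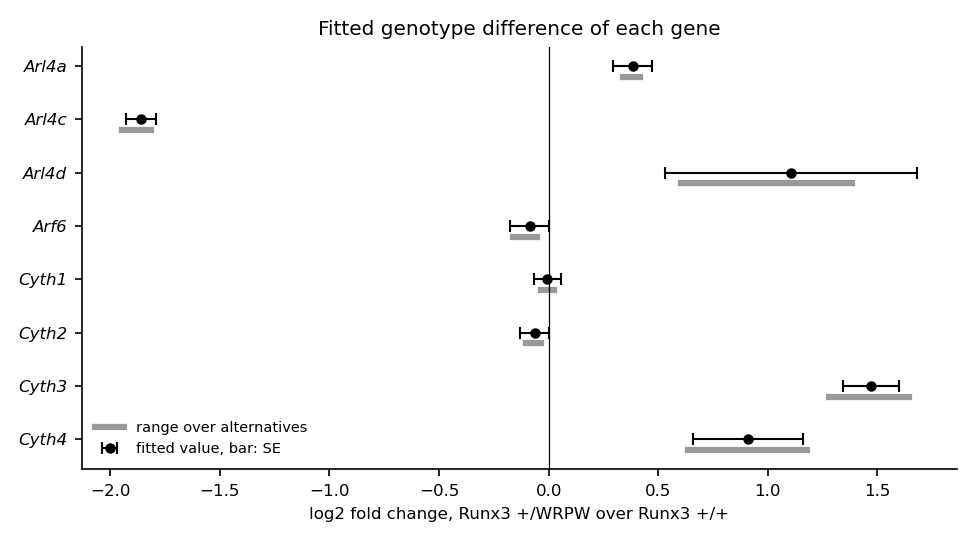
Fitted log2 fold change of each gene, Runx3 +/WRPW over Runx3 +/+, with its SE as a bar and the range over the alternative settings in grey. Arl4c lies at -1.86 and Cyth3 at 1.47, with narrow ranges, while the values of Arl4d and Cyth4 spread widely and those of Arf6, Cyth1 and Cyth2 lie near 0.

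Levels were compared between genes as TPM, the transcript abundance scaled to a fixed sum, which divides by exon length. Arl4c made up most of the Arl4 sum in both genotypes, at 90.3%, 87.6% and 89.6% of it in the Runx3 +/WRPW libraries and 97.6% and 97.8% in the Runx3 +/+ libraries. The summed level of the Arl4 genes was 203, 200 and 196 TPM in the Runx3 +/WRPW libraries and 633 and 670 TPM in the Runx3 +/+ libraries. The share of Arl4a in that sum was 8.14 ± 0.64% (SD, n = 3) in Runx3 +/WRPW and 1.88 ± 0.11% (SD, n = 2) in Runx3 +/+. Arl4a itself was 1.30-fold higher in Runx3 +/WRPW, while the sum it is divided by was lower. These shares rest on merged exon length, which is 7701 bases for Arl4a and 5492 for Arl4c. The longest transcripts have 3936 and 3997 bases, and with them the share of Arl4a would be larger in both genotypes.

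The cytohesin sum showed the opposite order of genotypes, at 793, 915 and 939 TPM in the Runx3 +/WRPW libraries and 659 and 686 TPM in the Runx3 +/+ libraries. Cyth3 accounted for 13.3%, 11.8% and 12.5% of it in the Runx3 +/WRPW libraries and for 6.79% and 4.90% in the Runx3 +/+ libraries. The share of Cyth4 was 32.5 ± 5.64% (SD, n = 3) in Runx3 +/WRPW and 22.5 ± 4.83% (SD, n = 2) in Runx3 +/+. Cyth1, with an even level, had a share of 45.1 ± 4.56% (SD, n = 3) in Runx3 +/WRPW and 58.3 ± 2.61% (SD, n = 2) in Runx3 +/+. With the longest transcript as the length, Cyth4 had 45.8% and 35.0% of the sum in the same order and Cyth1 32.4% and 46.1%, so which of them leads in Runx3 +/WRPW depends on the length used.

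**Figure D3:**
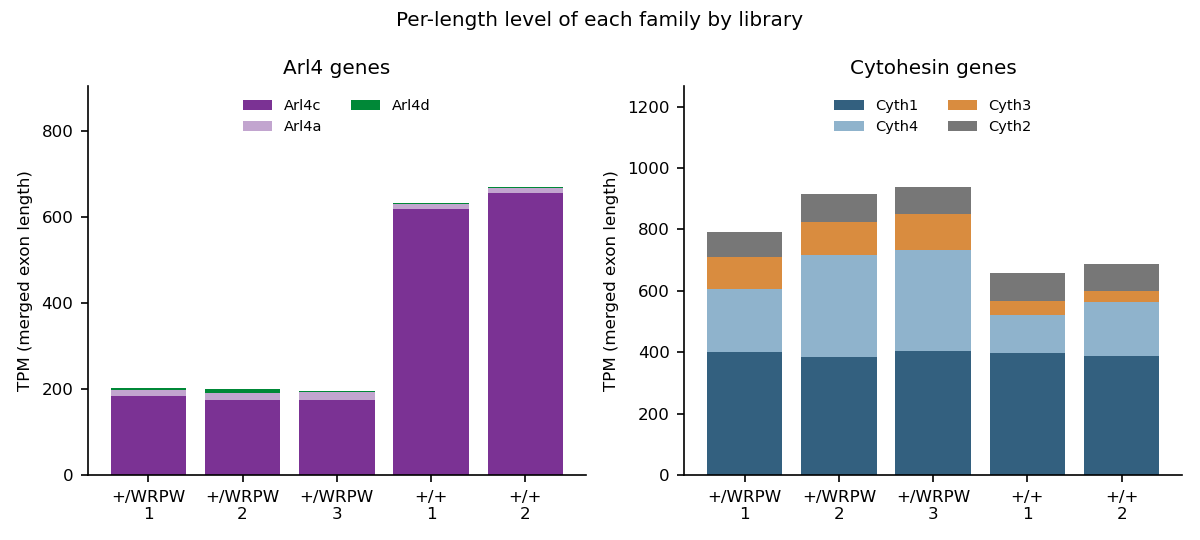
TPM of the Arl4 genes (left) and cytohesin genes (right), stacked by gene, in each library. The Arl4 bars reach 196 to 203 TPM in Runx3 +/WRPW and 633 to 670 TPM in Runx3 +/+, and the cytohesin bars 793 to 939 TPM in Runx3 +/WRPW and 659 to 686 TPM in Runx3 +/+.

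In order of mean TPM, the Runx3 +/WRPW libraries had Arf6 (738), Cyth1 (396), Cyth4 (289), Arl4c (178), Cyth3 (110), Cyth2 (86.8), Arl4a (16.2) and Arl4d (5.40). The Runx3 +/+ libraries had Arf6 (773), Arl4c (637), Cyth1 (392), Cyth4 (152), Cyth2 (89.4), Cyth3 (39.2), Arl4a (12.3) and Arl4d (2.44). In Runx3 +/WRPW, unlike in Runx3 +/+, Arl4c stood below Cyth1 and Cyth4, and Cyth3 stood above Cyth2. No neighbours in either order overlapped between libraries. The first place of Arf6 is not secure: its RefSeq gene spans 3831 bases against 1534 exonic bases in GENCODE, and at the longer length it would stand at 295 TPM in Runx3 +/WRPW and 309 TPM in Runx3 +/+. Among 12380 tested genes with a length, Arl4c was above 90.8% in Runx3 +/WRPW and 98.5% in Runx3 +/+.

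Reads could be shared between paralogs only where their sequences match. Coding sequences of the Arl4 genes were 61.4% to 63.5% identical in pairs, those of the cytohesins 68.6% to 76.9%, and those of Arf6 and the Arl4 genes 50.9% to 56.3%. No stretch of 50 bases in the transcripts of Arl4c, Arl4d, Cyth1, Cyth3 or Cyth4 occurred in transcripts of another gene. Such stretches made up 2.39% of Arl4a, 7.68% of Arf6 and 7.69% of Cyth2, the last a pair that each share exon sequence with 1 overlapping gene model.

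Over the 5 libraries, Arl4c and Cyth3 varied most among the members, and the genes nearest to them were sought among 8738 genes. Nearness was the root mean square difference in log2 CPM after centring each gene on its mean. Nearest to Arl4c were Cenpe, a motor of the kinetochore (0.047), Hmgb2, a chromatin protein of dividing cells (0.084), and Cdc6, which licenses DNA replication (0.088). Cenpe, for example, had 7.66, 7.72 and 8.00 CPM in the Runx3 +/WRPW libraries and 27.2 and 29.5 CPM in the Runx3 +/+ libraries. Since Arl4c was chosen by the genotype difference that these genes share, the names are given as a description.

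Nearest to Cyth3 were Tgfbr3, a TGF-beta coreceptor (0.060), Gprin3 (0.068) and Ggact (0.10). Tgfbr3 had 200, 186 and 207 CPM in the Runx3 +/WRPW libraries and 80.9 and 66.9 CPM in the Runx3 +/+ libraries. These CPM values were close to those of Cyth3, but CPM does not divide by length. With 5 libraries in 2 genotypes, nearness is largely a measure of the genotype difference.

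**Figure D4:**
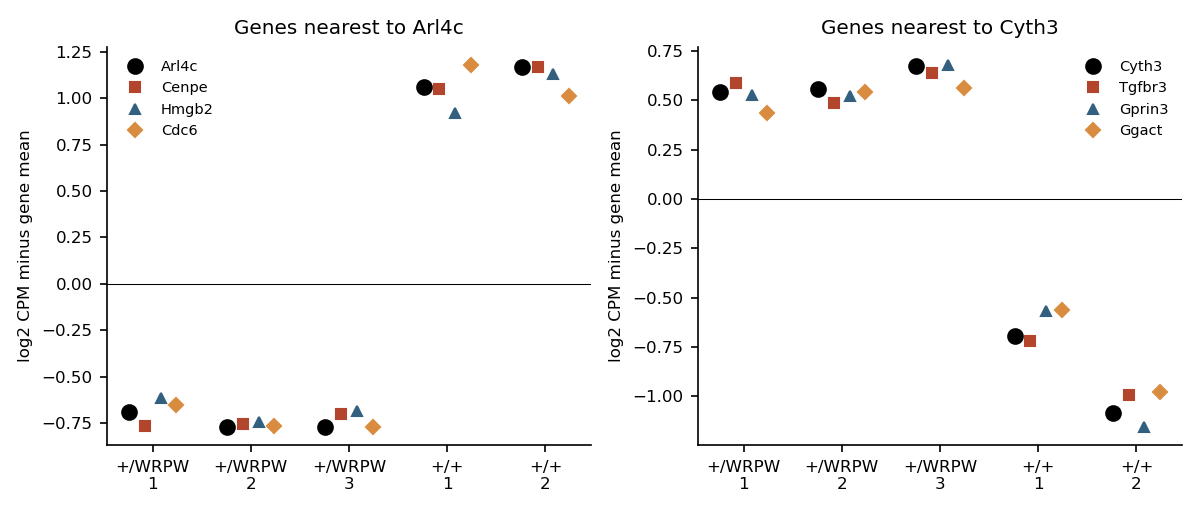
Log2 CPM minus each gene's mean over the 5 libraries, for Arl4c (left) and Cyth3 (right) with the 3 genes nearest to each. In both panels the Runx3 +/WRPW and Runx3 +/+ libraries form separate levels, with Arl4c and its neighbours low in Runx3 +/WRPW and Cyth3 and its neighbours high there.

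Around these 8 genes, 109 others were examined in 8 lists. They cover the Arf cycle and proteins bound by cytohesins, Arf6 or the Arl4 proteins. Phosphoinositide 3-kinase subunits, phosphoinositide phosphatases, and LXR receptors and targets were also listed. Of the 97 tested, 11 rose and 10 fell in Runx3 +/WRPW (21.6%, against 13.6% of all tested genes). The median log2 fold change was 0.03, against 0.02 over all tested genes. Since the lists were chosen with earlier results of these data known, nothing is read from this share or from the list counts below. Leaving out Runx3 +/WRPW library 1, 2 or 3 gave 5, 8 and 6 higher and 4, 9 and 7 lower. Leaving out Runx3 +/+ library 1 gave 5 higher and 2 lower, and leaving out library 2 of that genotype gave 1 and 1, where the lone wild-type library was assumed to vary like the other genotype.

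Adaptors that bind cytohesins, with the LFA-1 chains, fell in 4 of 7 tested (57.1% called, against 13.6% of all genes). The other 3 were not called, and the median log2 fold change was -0.48. Cytip, a lymphocyte adaptor that binds cytohesin-1, had 287, 257 and 269 CPM in the Runx3 +/WRPW libraries and 406 and 445 CPM in the Runx3 +/+ libraries. That is 1.57-fold lower (edgeR adjusted p = 0.00571). Frmd4b, which binds cytohesin-3, was 3.22-fold lower at 2.95 ± 0.86 CPM (SD, n = 3) in Runx3 +/WRPW and 9.40 ± 1.01 CPM (SD, n = 2) in Runx3 +/+ (edgeR adjusted p = 0.012). Grasp, the scaffold tamalin, was also 3.22-fold lower (edgeR adjusted p = 0.0272), and Itgb2, the beta chain of LFA-1, 1.32-fold lower at 625 ± 28.7 CPM (SD, n = 3) in Runx3 +/WRPW and 823 ± 22.0 CPM (SD, n = 2) in Runx3 +/+ (edgeR adjusted p = 0.0166). Itgal, the alpha chain, named after its values were seen, had a log2 difference of 0.03 ± 0.08 (SE). All 4 calls were lost when either of the Runx3 +/+ libraries was left out, those of Grasp and Itgb2 also without Runx3 +/WRPW library 1, and that of Grasp without library 3 of that genotype.

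Proteins reported to bind Arl4 GTPases fell in 2 of 6 tested (33.3% called, against 13.6% of all genes), with a median log2 fold change of -0.12. Flna, the actin crosslinker filamin A, which binds Arl4c, had 566, 566 and 563 CPM in the Runx3 +/WRPW libraries and 1170 and 1496 CPM in the Runx3 +/+ libraries. The Runx3 +/WRPW libraries were almost equal, and the level was 2.36-fold lower there (edgeR adjusted p = 0.0022), a call that held in all 13 alternatives. Elmo1, a partner of Arl4a in Rac activation, was 1.23-fold lower (edgeR adjusted p = 0.0383), and that call was lost when any 1 library was left out.

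Of the other Arf and Arf-like GTPases, 3 of 23 tested rose, 1 fell and 19 were not called (17.4% called, against 13.6% of all genes). The median log2 fold change was -0.04. Arl5a, a GTPase of the trans-Golgi, had 84.5, 73.5 and 67.8 CPM in the Runx3 +/WRPW libraries and 42.8 and 35.5 CPM in the Runx3 +/+ libraries, 1.93-fold higher (edgeR adjusted p = 0.00808). Arl8a, which positions lysosomes, was 1.30-fold higher (edgeR adjusted p = 0.0289), and Arl13b, a GTPase of cilia, 1.33-fold higher (edgeR adjusted p = 0.0396). Arl5c was 1.67-fold lower at 39.6 ± 7.42 CPM (SD, n = 3) in Runx3 +/WRPW and 66.0 ± 4.11 CPM (SD, n = 2) in Runx3 +/+ (edgeR adjusted p = 0.0298). The calls of Arl8a and Arl13b were lost when any 1 of the 5 libraries was left out. Leaving out either Runx3 +/+ library ended those of Arl5a and Arl5c, and the call of Arl5c was also lost without Runx3 +/WRPW library 1.

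Exchange factors other than the cytohesins gave no call among 11 tested in edgeR, with 3 at an unadjusted p under 0.05, 2 called higher by DESeq2 and 1 each by limma-voom, by edgeR with a filter of 1 CPM, and without Runx3 +/+ library 1. Iqsec1, an exchange factor for Arf6 named after its values were seen, had 143, 144 and 146 CPM in the Runx3 +/WRPW libraries and 93.1 and 45.6 CPM in the Runx3 +/+ libraries. The groups did not overlap, and the 2.09-fold higher level did not pass (edgeR adjusted p = 0.0565). Psd2 and Psd3, likewise named, were 1.95-fold (edgeR adjusted p = 0.0768) and 1.62-fold (edgeR adjusted p = 0.148) higher. Psd4, another exchange factor for Arf6, had 415 ± 12.1 CPM (SD, n = 3) in Runx3 +/WRPW and 394 ± 16.1 CPM (SD, n = 2) in Runx3 +/+ (edgeR adjusted p = 0.497). Arfgef1, which acts on Arf proteins of the trans-Golgi, had 199 ± 9.97 CPM (SD, n = 3) in Runx3 +/WRPW and 176 ± 11.5 CPM (SD, n = 2) in Runx3 +/+ (edgeR adjusted p = 0.174).

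The list of Arf GTPase-activating proteins, a family named for switching Arf proteins off, had 2 higher, 2 lower and 17 not called of 21 tested. Whether each listed gene has that activity was not tested. That is 19.0% called, against 13.6% of all genes, and the median was -0.03. Smap2, which acts with clathrin at the trans-Golgi, was 1.37-fold lower, with 218, 218 and 217 CPM in the Runx3 +/WRPW libraries and 306 and 288 CPM in the Runx3 +/+ libraries (edgeR adjusted p = 0.00816). Agfg2 was 1.33-fold lower (edgeR adjusted p = 0.0104), Asap2 1.77-fold higher (edgeR adjusted p = 0.0208) and Arfgap1, which acts on coated vesicles of the Golgi, 1.20-fold higher (edgeR adjusted p = 0.0339). The call of Arfgap1 was lost when any 1 of the 5 libraries was left out, and the other 3 were lost on leaving out either Runx3 +/+ library. Asap2 and Agfg2 also lost theirs without Runx3 +/WRPW library 1, and Asap2 without library 3 of that genotype.

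Of 9 Arf6 effectors tested, 2 rose (22.2% called, against 13.6% of all genes), with a median log2 fold change of 0.04. Pld2, a phospholipase D activated by Arf GTPases, had 21.4, 25.0 and 24.9 CPM in the Runx3 +/WRPW libraries and 12.1 and 11.0 CPM in the Runx3 +/+ libraries. That is 2.05-fold higher (edgeR adjusted p = 0.00521), and the call was lost without Runx3 +/+ library 2 alone among the single libraries. Spag9, a motor scaffold that binds Arf6, was 1.23-fold higher (edgeR adjusted p = 0.035), a call lost when any 1 library was left out.

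Phosphoinositide 3-kinase (PI3K) makes the lipid that cytohesin PH domains bind, and inositol phosphatases remove it. In that list 3 of 12 tested rose, 1 fell and 8 were not called (33.3% called, against 13.6% of all genes). The median was 0.12. Pik3r1, the main regulatory subunit of PI3K, was 1.68-fold higher at 413 ± 25.9 CPM (SD, n = 3) in Runx3 +/WRPW and 245 ± 26.5 CPM (SD, n = 2) in Runx3 +/+ (edgeR adjusted p = 0.00707). The phosphatase genes Inpp4b and Inppl1 were 1.94-fold (edgeR adjusted p = 0.0158) and 1.72-fold (edgeR adjusted p = 0.031) higher. Inpp4b had 674, 640 and 775 CPM in the Runx3 +/WRPW libraries and 417 and 300.3 CPM in the Runx3 +/+ libraries. Pik3r3, another regulatory subunit, was 1.69-fold lower (edgeR adjusted p = 0.032), a call lost on leaving out any 1 Runx3 +/WRPW library. The call of Inppl1 was lost without Runx3 +/WRPW library 1. None of the 4 was called without Runx3 +/+ library 2, while Pik3r1 and Pik3r3 kept their calls without library 1 of that genotype.

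Because Arl4c is known as an LXR target, the receptors and 6 other genes listed as targets were examined too. Whether each is a target in mouse thymocytes was not tested. Of 8 tested, 1 was called (12.5%, against 13.6% of all genes): Smpdl3a, a phosphodiesterase gene. Smpdl3a was 2.26-fold higher in Runx3 +/WRPW, in the opposite direction to Arl4c. It had 77.4, 72.0 and 76.6 CPM in the Runx3 +/WRPW libraries and 35.5 and 31.3 CPM in the Runx3 +/+ libraries (edgeR adjusted p = 0.00138), and the call held in all 13 alternatives. The cholesterol exporter gene Abca1, named after its values were seen, had 218, 238 and 244 CPM in the Runx3 +/WRPW libraries and 145 and 70.0 CPM in the Runx3 +/+ libraries and did not pass (edgeR adjusted p = 0.0541). Srebf1, likewise named, was 1.17-fold lower, at 162 CPM in Runx3 +/WRPW and 190 CPM in Runx3 +/+, and did not pass (edgeR adjusted p = 0.0541). Abcg1, also likewise named, was even, with a mean of 265 CPM in each genotype (edgeR adjusted p = 0.984). The list gave 2 higher with DESeq2, limma-voom, the filter of 1 CPM, and without Runx3 +/+ library 1, and 1 lower with DESeq2 and that filter. The median of the list was 0.19.

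**Figure D5:**
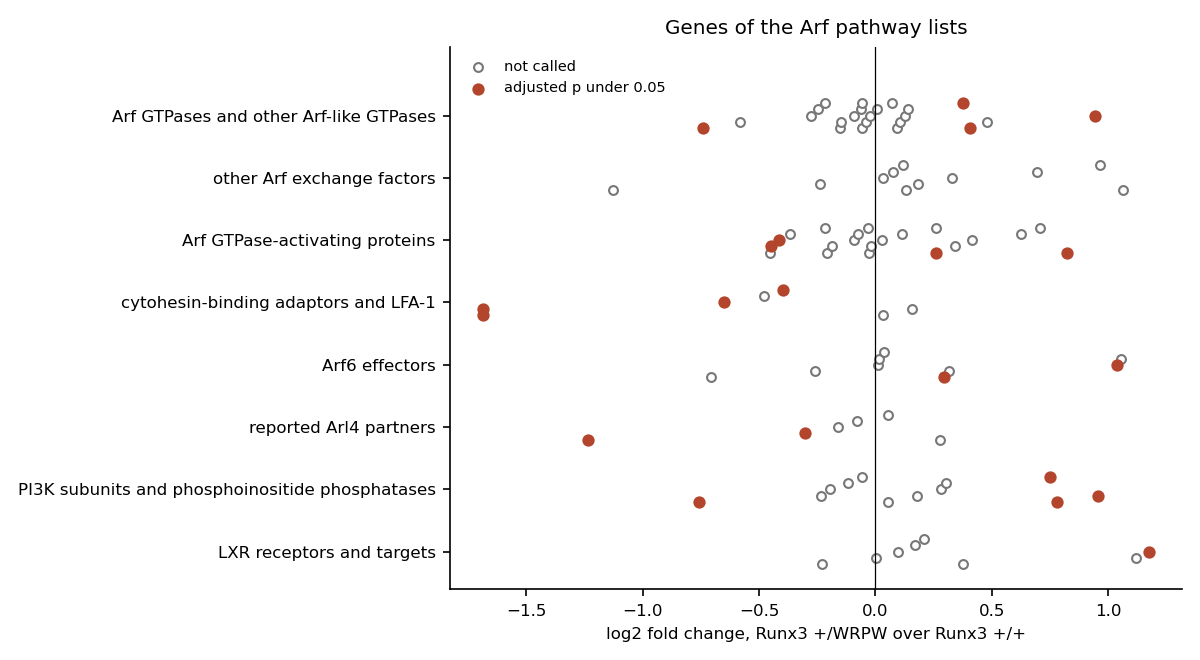
Fitted log2 fold change, Runx3 +/WRPW over Runx3 +/+, of each tested gene in the 8 lists, with filled points for an edgeR adjusted p under 0.05 and open points for the rest. The 4 called cytohesin-binding adaptors and LFA-1 genes and the 2 called Arl4 partners lie left of 0, the 2 called Arf6 effectors lie right of it, and the exchange factors have no filled point.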

How the data were processed

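Bulk RNA-seq counts of 5 libraries were used as deposited: raw counts of reads per gene symbol, 1 file per library, which the authors had not normalized. The genome was mm10, and HISAT2 2.2.1, featureCounts 2.0.8, cutadapt 4.0 and edgeR 3.36.0 are named, per the submitters' processing notes. For settings and annotation, the sources used here give nothing. Samples were grouped by the genotype label. Column headings of 2 files differ from the sample labels in number or name, and the sample records were followed. Pairs of libraries differed by a chi-square of at least 15.4 per gene, so none was a duplicate.

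Runx3 +/WRPW was compared with Runx3 +/+ over all genes with edgeR 4.0.16 in R 4.3.3 (TMM, filterByExpr with a minimum count of 10, glmQLFit, glmQLFTest), with Benjamini-Hochberg adjustment over 13666 genes and a threshold of 0.05. The SE was taken as |log2 fold change|/√F. DESeq2 1.42.0 and limma 3.58.1 (voom) were alternatives. TPM used merged GENCODE M21 exons, matched for 74.5% of rows. The pipeline was tested only on simulated counts with a common spread setting for all genes. Such counts lack the gene-by-gene spread and the outlying library of these data.

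The members and lists were chosen with earlier results of these data known. Named genes were the members, up to 4 called genes per list by p-value (with no call, the 2 at the highest level), and the 3 nearest genes to the 2 most variable members. Marker lists covered CD8 SP, CD4 lineage, immature and regulatory T cells, B cells, myeloid, stromal, erythroid, natural killer and dividing cells. Depth ran from 15715242 to 43758550 counts.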

Additional observations from a re-analysis of the deposited data

How the results depend on the processing

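Among 103 alternative values of the 8 genes' log2 fold changes, 91 kept their direction and side of the threshold. Arl4c, with values of -1.95 to -1.81, and Cyth3, with 1.28 to 1.64, kept both in all 13 alternatives, and Arl4a lost its call in 7 (no low-count filter, the replicate block and each library left out). Cyth4 gained a call in 3 (DESeq2, the replicate block, and without Runx3 +/WRPW library 1). Cyth1 turned to 0.025 with upper-quartile factors and ran from -0.035 to 0.016 with a library left out (above 0 without Runx3 +/WRPW library 2), and Psd4 ran from -0.0024 (without Runx3 +/+ library 1) to 0.11 likewise. The 2 members called higher numbered 1 with no low-count filter and 1 to 2 with a library left out, and the 1 called lower kept its number. The lists, with 11 higher and 10 lower, gave 17 and 16 with DESeq2, 7 higher with no filter, and 1 to 8 higher and 1 to 9 lower with a library left out. All calls, 1855, numbered 1079 with no filter and 277 to 1431 with a library left out. Same-numbered libraries are not said to share a source and did not deviate together (correlations of -0.05 and 0.0024). The column heading of Runx3 +/+ library 2 bears another number, so this check and the block fit rest on the sample records alone. The fit with the replicate number as a block gave 754 calls, and 7 higher and 5 lower in the lists. The share of Cyth3 in the cytohesin sum, 12.5% in Runx3 +/WRPW, was 14.0% with the longest transcript as length. The RefSeq span for Arf6 was chosen after seeing the data. The cause of these changes was not tested. Depth limits Arl4d, with 17 to 60 counts. Counts without molecular identifiers are not independent molecules.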
